A study of Mus musculus with 12 samples.

Results

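RNA from myotubes grown on Geltrex was compared with RNA from myotubes grown on uncoated plates. The comparison used 6 of the 12 samples of the series, 3 Geltrex and 3 control, and was chosen by those sample names in the count table. All cells were C2C12GFP, a mouse myoblast line that carries green fluorescent protein, so 1 cell line stands behind every group. Myoblasts were switched to low-serum medium to form myotubes, and the groups differed in the surface under the cells. Geltrex is a reduced growth factor basement membrane extract, free of lactate dehydrogenase-elevating virus, made up mainly of laminin, Collagen IV and entactin, and the control plates carried no protein coat. The remaining 6 samples, 3 on fibronectin and 3 on Collagen I, were used to ask where Geltrex differed from another coating. The day of RNA collection is not given in the sources used here. Nothing states that the 3 samples of a group came from separate cultures, so p-values measure the spread between these samples, which may be technical.

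Of 55536 genes in the table, 27049 had a count in at least 1 of the 6 samples and 14499 passed the filter on low counts and were tested. Total counts per sample ran from 23812461 to 27334546 in control and from 22520404 to 24477732 in Geltrex. The 3 Geltrex samples lay closer together than those of the other groups, with a median coefficient of variation over genes of 3.66% against 8.41% in control, 8.35% in fibronectin and 8.52% in Collagen I. Their counts differed with a chi-square per degree of freedom of 2.307 to 5.153 over the 3 pairs, above sampling noise. Control pairs had 26.26 to 37.61 and fibronectin pairs 24.68 to 36.52. Collagen I pairs ran from 9.039, for replicates 1 and 2, to 78.91. Whether they are 3 independent samples cannot be told from this. They were analysed as 3, as labelled, and also summed into 1. In that fit 30 of the 70 other list counts against control moved by over 1.5 times. All 10 markers of skeletal myotubes were detected in each of the 6 samples, with a lowest count of 87, for Actn2.

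A basement membrane is the sheet of laminin, Collagen IV, nidogen and heparan sulfate proteoglycan that wraps each muscle fibre, and muscle cells bind it through integrins and the dystrophin complex. Myoblasts leave the cell cycle before they fuse, and then switch on the sarcomere genes under the MyoD family and MEF2 factors. Almost every cell type, muscle included, can also respond to type I interferon, whose receptor activates factors that bind the interferon-stimulated response element and the gamma-activated site and switch on antiviral genes.

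Geltrex changed expression broadly and about equally in both directions. At an adjusted p of at most 0.05 (quasi-likelihood test of edgeR, Benjamini-Hochberg adjusted across the tested genes), 2373 genes, 16.4% of those tested, were higher on Geltrex and 2413, 16.6%, were lower, together 33.0%. With a fold change of at least 2 as well, 1325 genes (9.14%) were differentially expressed, of which 602 (4.15%) were higher and 723 (4.99%) lower. The median log2 fold change over all tested genes was -0.01. In 3665 of the 14499 tested genes all 3 Geltrex samples lay above all 3 control samples, and in 3639 all lay below. A lack of overlap between the groups was therefore common, and where it is given for a named gene it describes that gene only. Protein-coding genes made up 86.2% of the higher and 71.1% of the lower set, against 85.8% of all tested genes. The first principal component of the 6 samples carried 68% of their variance and separated the 3 Geltrex from the 3 control samples. Against fibronectin, Geltrex differed by the same 2 criteria in 577 genes (3.98%), and against Collagen I in 1352 genes (9.32%). At the adjusted p alone, 9.06% of tested genes were higher and 10.3% lower on Geltrex than on fibronectin. Against Collagen I these shares were 19.0% and 18.2%. Every list count below is to be read beside the shares of the same comparison.

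**Figure D1:**
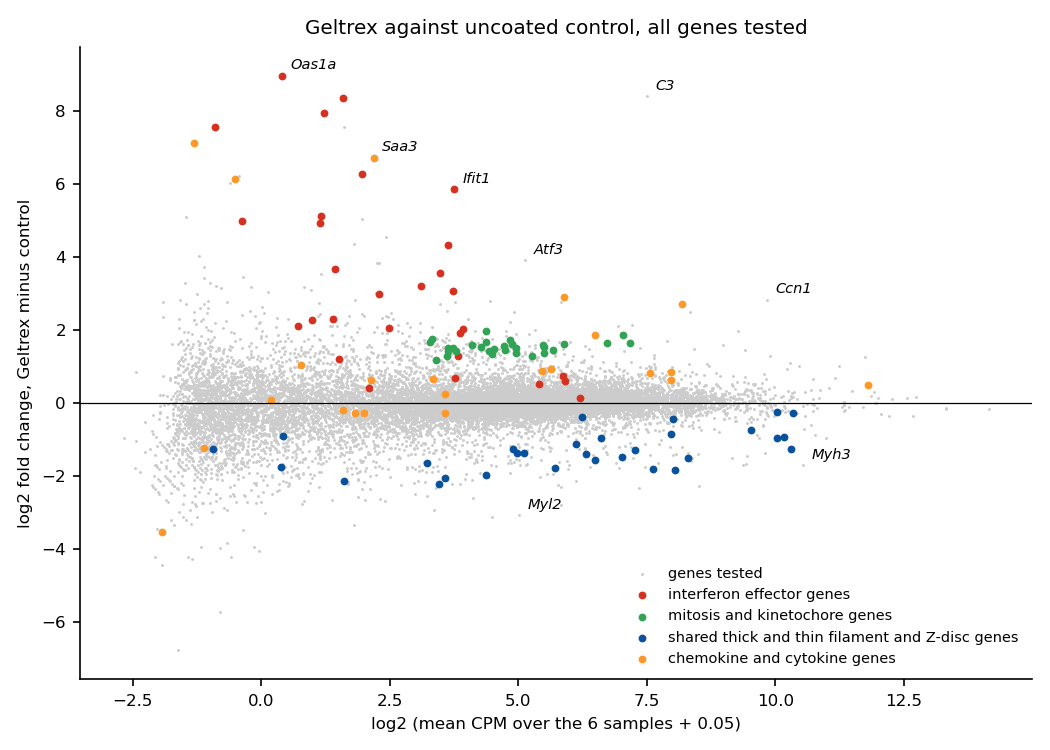
Log2 fold change of Geltrex over control (vertical axis) against the log2 of the mean CPM over the 6 samples (horizontal axis), with 1 grey point for each of the 14499 tested genes and colours for 4 gene lists. Interferon effectors (red, median 2.98) and mitosis genes (green, median 1.52) lie above 0, shared sarcomere genes (blue, median -1.32) lie below, and C3 stands out at 8.42.

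The genes raised most by Geltrex were antiviral and acute-phase genes. By the naming rule, the 10 largest increases were in Oas1a, C3, Oas2, Trim30a, Iigp1, Saa3, Ifi44, Ifit1, Usp18 and Phf11d. In a bulk sample, a change in the number of responding cells and a change in RNA per cell cannot be told apart. Promoters of 5 of the interferon genes that rose are shown first, because they hold the letters of the interferon-stimulated response element. Each line gives the 150 bases before the RefSeq start site (GRCm38.p6), read 5′ to 3′ on the strand of the gene, and capitals mark every match to GAAANNGAAA on either strand.
Isg15, chr4:156200819-156200968, minus strand: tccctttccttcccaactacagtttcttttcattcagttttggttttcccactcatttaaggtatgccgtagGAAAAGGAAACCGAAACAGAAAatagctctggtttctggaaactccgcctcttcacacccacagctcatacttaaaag
Ifit1, chr19:34640739-34640888, plus strand: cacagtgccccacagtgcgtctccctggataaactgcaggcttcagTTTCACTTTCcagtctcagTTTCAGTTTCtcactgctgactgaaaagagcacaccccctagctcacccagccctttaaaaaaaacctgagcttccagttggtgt
Oas1a, chr5:120907526-120907675, minus strand: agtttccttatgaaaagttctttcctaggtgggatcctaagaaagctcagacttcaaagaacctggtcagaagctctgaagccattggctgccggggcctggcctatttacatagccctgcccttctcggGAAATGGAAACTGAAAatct
Gbp3, chr3:142559894-142560043, plus strand: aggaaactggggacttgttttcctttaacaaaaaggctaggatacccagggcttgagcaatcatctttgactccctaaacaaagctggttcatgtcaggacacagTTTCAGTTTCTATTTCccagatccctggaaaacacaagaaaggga
Ddx60, chr8:61927937-61928086, plus strand: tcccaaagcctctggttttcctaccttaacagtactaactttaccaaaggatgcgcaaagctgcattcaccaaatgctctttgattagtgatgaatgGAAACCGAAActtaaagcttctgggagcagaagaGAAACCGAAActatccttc
In Isg15 the capitals are 3 overlapping matches that lie 57 to 78 bases before the start. Oas1a holds 2 overlapping matches 5 to 20 bases before it, and Ddx60 holds 2 separate ones between 10 and 53 bases before it. Ifit1 and Gbp3 each hold 2 matches on the opposite strand, at 76 to 104 and 30 to 45 bases before the start.

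Over all 32851 promoter windows of the RefSeq table, which run from 250 bases before to 50 bases after a start, 3.44% held a match to GAAANNGAAA on either strand. Among tested genes that matched the table by symbol, 371 of 10312 (3.6%) had one. The share was 53 of 414 (12.8%) among genes at least 2-fold higher on Geltrex and 8 of 455 (1.76%) among those at least 2-fold lower. For the interferon effector genes it was 10 of the 20 matched, and for the interferon-inducible GTPases 8 of 8. The letters of the gamma-activated site, TTCNNNGAA, stood in 8.3% of all windows, in 7 of 20 effector promoters and in 5 of 8 GTPase promoters. These shares describe letters in a fixed window and were not tested.

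Of 37 listed interferon effector genes, 29 were tested and 27 rose on Geltrex, none fell, and the median log2 fold change was 2.98. The background share of higher genes was 16.4%. Because many of these genes were near 0 in control, their passing the filter depended on the Geltrex samples. The 8 untested members are described with the ligands. When every sample had to hold at least 10 counts, 15 of 17 tested effectors and 4 of 5 tested GTPases were higher. Ifit1, which binds viral RNA lacking host cap marks, was counted at 0.358, 0.183 and 0.849 CPM (counts scaled by the effective size of the library) in the 3 control samples. In Geltrex it reached 19.7, 22.3 and 37.2 CPM, and no Geltrex sample overlapped the control range. The log2 fold change was 5.86 (SE 0.388, edgeR adjusted p = 2.28e-08, n = 3 per group).

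Isg15, a ubiquitin-like protein attached to other proteins during the antiviral response, measured 0.0795, 0.183 and 0.127 CPM in control and 3.59, 3.91 and 5.10 CPM in Geltrex. All Geltrex samples exceeded all controls, with a log2 fold change of 4.94 (SE 0.375, edgeR adjusted p = 9.22e-08). Its protease Usp18, which also damps interferon receptor signaling, went from 0.0398, 0.220 and 0.0849 CPM to 3.20, 3.58 and 5.997 CPM. Usp18 rose by a log2 fold change of 5.11 (SE 0.486, edgeR adjusted p = 9.4e-07). Ifi44 measured 0.119, 0.110 and 0.0425 CPM in control and 5.98, 6.18 and 10.6 CPM in Geltrex, a log2 fold change of 6.29 (SE 0.405, edgeR adjusted p = 1.67e-08). In Ifit1, Usp18 and Ifi44, Geltrex replicate 3 was the highest sample.

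The oligoadenylate synthetases make the messenger that activates RNase L on double-stranded RNA. Oas1a had 0 counts in all 3 control libraries and 2.14, 2.72 and 2.75 CPM in Geltrex. Against a floor of 3 counts over the control group, that is at least 64.1-fold higher. Oas2 had 1 control count and 413 Geltrex counts, a ratio of 449 with a 95% counting interval of 80.1 to 17800. Trim30a, a TRIM family regulator of innate signaling, had 1 and 317 counts, a ratio of 345 (61.4 to 13700). Ddx60, an RNA helicase, had 3 and 97 counts, a ratio of 35.2 (11.7 to 173). These intervals cover counting error, and with control at 3 counts or fewer the size of each increase is poorly fixed. Oas1a and Trim30a have near-identical neighbours, so reads may be split between copies.

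The interferon-inducible GTPases, which attack the membranes around intracellular pathogens, moved with the effectors. Of 15 listed members 13 were tested, 12 rose, none fell, and the median log2 fold change was 2.82. Iigp1 had 2 counts in control and 414 in Geltrex, a ratio of 225 (95% counting interval 61.9 to 1860). Gbp3 measured 0.477, 0.660 and 0.722 CPM in control and 7.65, 9.19 and 9.65 CPM in Geltrex. Irgm2 measured 3.14, 2.57 and 3.06 CPM against 16.1, 18.0 and 23.3 CPM. Neither gene overlapped between groups, with log2 fold changes of 3.82 for Gbp3 (SE 0.213, edgeR adjusted p = 5.18e-09) and 2.71 for Irgm2 (SE 0.177, edgeR adjusted p = 1.88e-08). Iigp1 and Gbp3 belong to multigene families whose reads may be split.

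Most of the same genes were higher on Geltrex than on the other coatings. Many passed the filter only through the Geltrex samples, so these counts and medians describe the members and do not test them. With at least 10 counts required in every sample, 17 effectors and 5 GTPases were tested. Against fibronectin, 25 of the 29 tested effectors were higher on Geltrex and none lower, with a median log2 difference of 3.33 and a background of 9.06% of genes higher. Against Collagen I, 27 of 29 were higher, with a median of 2.59 and a background of 19.0%. Of the 13 tested GTPases 12 were higher in each of these direct comparisons. Isg15 was higher on Geltrex than on fibronectin by 3.79 on the log2 scale (SE 0.327, edgeR adjusted p = 7.34e-07). Against Collagen I its difference was 3.50 (edgeR adjusted p = 5.73e-07). Fibronectin itself, compared with the same 3 control samples, had 3 effectors higher (17.1% of all genes) and 2 lower (14.7%).

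**Figure D2:**
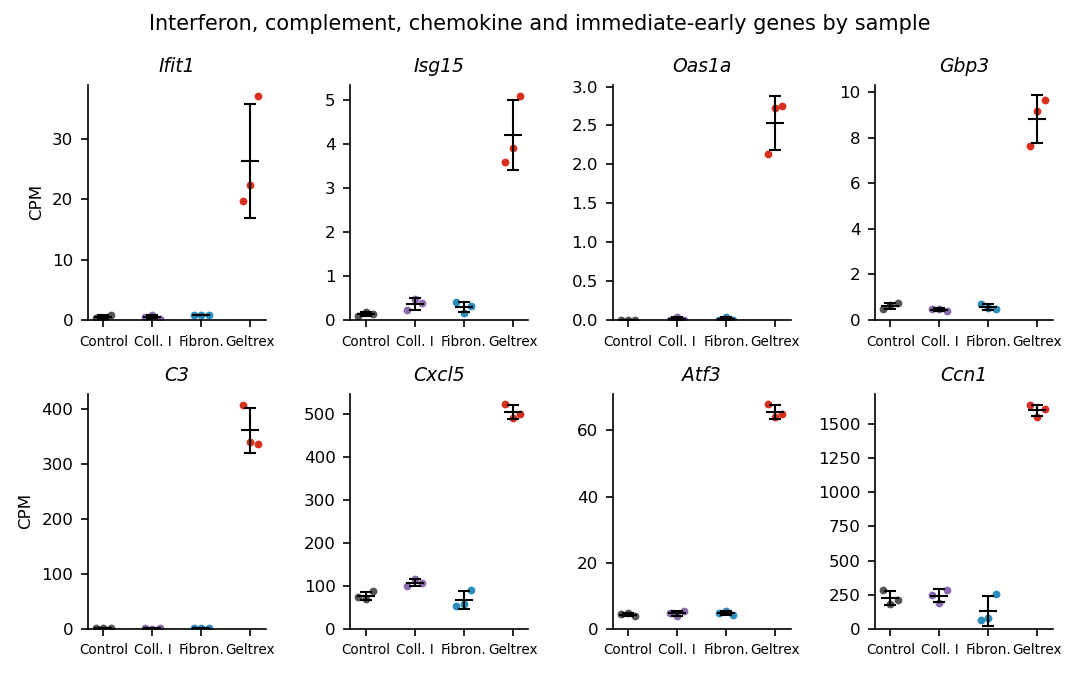
CPM (linear axis from 0) for interferon genes and for C3, Cxcl5, Atf3 and Ccn1 in control, Collagen I, fibronectin and Geltrex, with 1 point per sample (3 per group) and bars for the mean and SD. In Ifit1 the Geltrex samples lie between 19.7 and 37.2 CPM and the control samples between 0.183 and 0.849 CPM.

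The signaling genes between interferon and its targets did not move together. Of 17 tested members of 23 listed, 6 rose and 6 fell, with a median log2 fold change of -0.07. Irf7, the factor that amplifies type I interferon production, measured 1.39, 0.880 and 0.764 CPM in control and 6.83, 6.71 and 11.1 CPM in Geltrex, a rise of 3.01 on the log2 scale (SE 0.277, edgeR adjusted p = 6.84e-07). The DNA-binding factors Irf9 and Stat2, named after their values were seen, moved in opposite directions. Irf9 rose, measuring 11.2, 8.25 and 9.43 against 20.2, 21.1 and 28.4 CPM (log2 fold change 1.27, SE 0.142, edgeR adjusted p = 4.77e-06). Stat2 went the other way, from 41.2, 41.5 and 39.8 CPM to 26.1, 26.9 and 33.5 CPM (log2 fold change -0.50, SE 0.109, edgeR adjusted p = 0.00215). Socs3, a feedback inhibitor of cytokine receptors, also fell, from 26.0, 26.7 and 21.3 CPM to 10.1, 8.57 and 7.80 CPM (log2 fold change -1.48, SE 0.158, edgeR adjusted p = 2.93e-06).

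The interferon ligands themselves were barely counted. Ifnb1 had 0 counts in control and 1 in Geltrex, and Ifna4 and Ifnl2 had 0 in all 6 libraries, which allows up to 3 counts each. Ifng had 4 counts over the 3 control and 24 over the 3 Geltrex libraries, too few for the filter. Among the 8 effectors left untested for low counts, Mx1 had 4 counts in control and 32 in Geltrex. Rsad2 had 5 and 22, Oas1b 2 and 29, and Oas1g 0 and 22. Oasl1 had 2 and 13, Cmpk2 1 and 12, and Ifit1bl1 7 and 14. Ifi44l went the other way, with 4 counts in control and 0 in Geltrex.

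Sensors of foreign nucleic acid rose in part. Beside 16.4% and 16.6% of all genes, 11 of 21 tested members of 23 listed were higher and 1 lower. Their median was 0.50. Ifih1, the helicase that detects long double-stranded RNA, measured 2.43, 3.82 and 4.25 CPM in control and 22.1, 23.2 and 26.0 CPM in Geltrex. It rose by a log2 fold change of 2.76 (SE 0.191, edgeR adjusted p = 3.41e-08) with no overlap between groups. Its partner Dhx58 measured 0.597, 0.293 and 0.127 CPM against 3.12, 3.01 and 3.25 CPM (log2 fold change 3.17, SE 0.391, edgeR adjusted p = 1.3e-05). Tlr4, the endotoxin receptor, measured 121, 158 and 155 CPM in control and 176, 179 and 174 CPM in Geltrex. That difference did not pass the test (log2 fold change 0.28, SE 0.13, edgeR adjusted p = 0.107), and it passed when the 2 groups were fitted alone (0.28) or with no filter on low counts (0.29).

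Antigen presentation by MHC class I rose by smaller amounts. Of 20 listed genes 17 were tested. Beside 16.4% of all genes, 12 of these rose, none fell, and the median was 0.50. With the Geltrex samples summed into 1, 6 rose and B2m lost its call. B2m, the shared light chain, measured 334, 343 and 478 CPM in control and 531, 559.9 and 541 CPM in Geltrex (log2 fold change 0.50, SE 0.131, edgeR adjusted p = 0.00806). Tap1, a subunit of the peptide transporter, measured 0.437, 0.367 and 0.510 CPM against 1.45, 1.57 and 1.71 CPM (log2 fold change 1.84, SE 0.39, edgeR adjusted p = 0.00176). Against fibronectin 14 of the 17 were higher on Geltrex, beside 9.06% of all genes, and against Collagen I 8, beside 19.0%. Class I heavy chain genes resemble each other closely, and their single values are uncertain.

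A few complement genes rose on Geltrex. Of 29 listed, 14 were tested, 5 rose (35.7%, beside 16.4% of all genes), none fell, and the median was 0.12. C3 (chr17:57203970-57228136, minus strand, GRCm38 in GENCODE), the central component of the cascade, had the smallest adjusted p of any gene tested. It measured 0.875, 1.25 and 1.02 CPM in control and 408, 339 and 336 CPM in Geltrex. The groups lay far apart, with a log2 fold change of 8.42 (SE 0.189, edgeR adjusted p = 9.76e-14). The difference from fibronectin was 8.11 (SE 0.184, edgeR adjusted p = 1.18e-13) and from Collagen I 8.77 (edgeR adjusted p = 8.58e-14). C1s1, a protease of the classical pathway, measured 66.3, 67.6 and 82.7 CPM in control and 215, 182 and 186 CPM in Geltrex (log2 fold change 1.43, SE 0.11, edgeR adjusted p = 1.11e-07).

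Chemokines and acute-phase genes followed. Of 31 listed chemokine and cytokine genes 23 were tested. Beside 16.4% and 16.6% of all genes, 15 rose and 1 fell, with a median of 0.65. Ccl2, which draws monocytes, measured 13.6, 12.7 and 15.6 CPM in control and 117, 96.8 and 98.2 CPM in Geltrex, a log2 fold change of 2.90 (SE 0.122, edgeR adjusted p = 4.22e-10). Cxcl5, which draws neutrophils, measured 74.1, 70.4 and 88.1 CPM against 524, 492 and 499.7 CPM, a log2 fold change of 2.71 (SE 0.155, edgeR adjusted p = 6.22e-09). Neither chemokine overlapped between groups. Cxcl10, an interferon-induced ligand for T cells, had 0 control counts and 49 Geltrex counts and was at least 17.8-fold higher against the same 3-count floor. Ccl5, a T cell chemokine named after its values were seen, had 1 control count, a ratio of 97.8 with a 95% counting interval of 17.1 to 3910. Spp1, a matrix-bound cytokine, rose less, from 2884, 2754 and 3263 CPM to 4189.8, 4296 and 4142 CPM (log2 fold change 0.51, SE 0.0908, edgeR adjusted p = 0.000467). Cxcl14 was the member that fell, with 0.358, 0.183 and 0.637 CPM in control and 0.0427, 0.0412 and 0 CPM in Geltrex. It rests on 2 Geltrex counts, with a ratio to control of 0.075, a 95% counting interval of 0.00867 to 0.296 and an edgeR adjusted p = 0.00324.

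Saa3, an acute-phase apolipoprotein, measured 0.0795, 0.0367 and 0.127 CPM in control and 9.18, 8.61 and 8.93 CPM in Geltrex, a log2 fold change of 6.73 (SE 0.399, edgeR adjusted p = 8.93e-09). It has close paralogs, and its value is uncertain to that extent. Among NF-kB subunits and feedback inhibitors, 6 of 14 tested members of 15 listed rose and none fell, with a median of 0.16 (2 rose with the Geltrex samples summed). The inhibitor Tnfaip3 measured 26.0, 24.1 and 23.1 CPM in control and 61.7, 55.4 and 59.5 CPM in Geltrex (log2 fold change 1.27, SE 0.0951, edgeR adjusted p = 7.86e-08). The nuclear regulator Nfkbiz rose by 1.899 on the log2 scale (SE 0.198, edgeR adjusted p = 2.37e-06), and the subunit Nfkb1 by 0.33 (SE 0.0771, edgeR adjusted p = 0.00413).

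Markers of immune cells did not accompany these increases. Of 14 macrophage and leukocyte markers, 5 had 0 counts in all 6 samples, 8 had at most 3 counts in every sample, and 2 passed the filter, of which none rose and 1 fell. Their summed level ran from 10.09 to 13.76 CPM in control and from 8.792 to 9.781 CPM in Geltrex. The summed 9 endothelial markers ran from 1.989 to 3.082 CPM in control and from 0.897 to 1.488 CPM in Geltrex, and their 1 tested member fell. The summed fibroblast markers overlapped, at 473.7 to 502.2 CPM and 470.7 to 492.5 CPM, with 2 of 9 higher and 2 lower. Smooth muscle markers overlapped too, at 1019 to 1114 and 1011 to 1073 CPM, with 2 of 4 tested higher. Adipocyte markers ran from 25.56 to 28.94 CPM in control and from 33.1 to 33.66 CPM in Geltrex, with 1 of 2 tested higher. Bone and cartilage markers ran from 166.6 to 187.5 and from 178.5 to 195.1 CPM, and 0 of 2 tested members passed in edgeR or DESeq2, with 1 at an unadjusted p under 0.05.

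Immediate-early genes and ERK feedback genes, which follow growth factor and stress signals within minutes to hours in many cells, rose on Geltrex. Of 25 listed and tested, 16 rose and none fell, with a median of 0.78. Myc, which drives growth and ribosome production, measured 16.4, 12.3 and 15.4 CPM in control and 106, 97.0 and 96.4 CPM in Geltrex. It rose by a log2 fold change of 2.77 (SE 0.191, edgeR adjusted p = 3.32e-08) without overlap. Dusp1, a phosphatase that switches MAP kinases off, was named after its values were seen. It measured 95.5, 72.7 and 88.5 CPM in control and 248, 239 and 241 CPM in Geltrex (log2 fold change 1.505, SE 0.278, edgeR adjusted p = 0.000583). Fosl1, an AP-1 subunit, rose by 2.73 (SE 0.256, edgeR adjusted p = 8.19e-07), but 57.2% of its exons overlap a gene on the opposite strand. Jun, another AP-1 subunit, measured 244, 239 and 271 CPM against 279.5, 272 and 267 CPM, with an overlap and no call (edgeR adjusted p = 0.286).

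The direct comparisons gave 18 of these 25 genes higher on Geltrex than on fibronectin and 17 higher than on Collagen I, with none lower in either, beside 9.06% and 19.0% of all genes higher. Fibronectin had 4 of them higher and 7 lower than the shared controls, beside 17.1% and 14.7% of all genes. Mapk3, an ERK kinase, measured 79.7, 72.2 and 86.3 CPM against 77.9, 80.8 and 74.3 CPM (log2 fold change -0.03, SE 0.0968, edgeR adjusted p = 0.834).

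Atf3 and the ATF4 targets, the stress arm that supplies amino acids, also rose. Of 21 listed genes 20 were tested. Beside 16.4% and 16.6% of all genes, 13 rose and 2 fell, with a median of 0.50. Atf3, a stress-induced transcription factor, measured 4.53, 4.70 and 3.82 CPM in control and 68.0, 64.1 and 64.9 CPM in Geltrex, a log2 fold change of 3.91 (SE 0.126, edgeR adjusted p = 1.36e-11). Atf4 itself measured 265, 231 and 217 CPM against 441, 423 and 424 CPM (log2 fold change 0.85, SE 0.102, edgeR adjusted p = 1e-05). Gdf15, a secreted stress signal, rose by 2.15 (SE 0.219, edgeR adjusted p = 1.92e-06), and Psat1, an enzyme of serine synthesis, by 0.47 (SE 0.0756, edgeR adjusted p = 0.000191). The whole list did not separate Geltrex from fibronectin in 1 direction, with 4 members higher and 6 lower, although Atf3 differed by 3.77 (SE 0.125, edgeR adjusted p = 1.32e-11).

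Targets of YAP and TEAD, the factors that respond to cell shape and stiffness, were led by the CCN genes. Of 20 listed and tested, 9 rose and 3 fell, beside 16.4% and 16.6% of all genes, with a median of 0.26. Ccn1, a matrix-bound ligand of integrins, measured 283, 182 and 208 CPM in control and 1638, 1555 and 1608 CPM in Geltrex. The log2 fold change was 2.83 (SE 0.383, edgeR adjusted p = 3.24e-05) and the groups were well apart. Ccn2, its close relative, measured 96.9, 91.7 and 102 CPM against 581, 516 and 547 CPM (log2 fold change 2.50, SE 0.104, edgeR adjusted p = 4.19e-10). Ankrd1, a muscle ankyrin-repeat protein, went from 813, 800.1 and 799 CPM to 1679, 1710.4 and 1746 CPM (log2 fold change 1.09, SE 0.0951, edgeR adjusted p = 3.89e-07). Against fibronectin the 20 genes had 4 higher and 1 lower, with a median of -0.003. Ccn1, Ccn2 and Ankrd1 were among the 4, higher than on fibronectin by 3.60, 2.28 and 1.51 on the log2 scale (edgeR adjusted p = 9.93e-06, 8.85e-10 and 2.66e-08). Of the Ccn2 exons, 23.2% overlap a gene on the opposite strand.

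The TGF-beta, BMP and activin list as a whole was mixed. Beside 16.4% and 16.6% of all genes, it had 9 of 23 tested genes higher and 6 lower, with a median of 0.05. Its feedback inhibitor Smad7 rose by 1.18 (SE 0.145, edgeR adjusted p = 1.3e-05). The Notch pathway list had 3 of 12 higher and 3 lower, and the IGF pathway list 6 of 17 higher and 4 lower, with medians of 0.03 and 0.00. Irs1, the adaptor of the insulin and IGF receptors, went from 36.8, 42.0 and 39.8 CPM to 84.5, 82.2 and 91.1 CPM (log2 fold change 1.12, SE 0.113, edgeR adjusted p = 1.81e-06), and 30.9% of its exons overlap a gene on the opposite strand.

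Cell division genes were higher on Geltrex. All 30 mitosis and kinetochore genes rose, with a median log2 fold change of 1.52. Of 38 DNA replication genes 34 rose and none fell, with a median of 1.01. Mki67, a protein of cycling cells, measured 47.4, 53.9 and 68.3 CPM in control and 186, 208 and 222 CPM in Geltrex, a log2 fold change of 1.86 (SE 0.159, edgeR adjusted p = 3.06e-07). Top2a, which untangles replicated DNA, measured 58.5, 72.9 and 78.2 CPM against 211, 224 and 226 CPM (log2 fold change 1.66, SE 0.103, edgeR adjusted p = 1.25e-08). Neither gene overlapped between groups. Cdc6, which licenses replication origins, rose by 2.09 (SE 0.248, edgeR adjusted p = 9.24e-06). Rrm2, a ribonucleotide reductase subunit, was among the 4 replication genes that did not pass, at 140.0, 157 and 139.5 CPM in control and 153, 160.5 and 156 CPM in Geltrex (edgeR adjusted p = 0.428).

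Ccnd1, the cyclin that carries growth signals into G1, measured 16.6, 17.6 and 14.1 CPM in control and 67.7, 61.8 and 63.4 CPM in Geltrex (log2 fold change 1.99, SE 0.099, edgeR adjusted p = 2.29e-09), with 23.4% of its exons overlapped by a gene on the opposite strand. Cell cycle exit genes were mixed, with 6 of 16 tested higher, 3 lower and a median of -0.02. Among them Cdkn1a, the cyclin-dependent kinase inhibitor of differentiating myoblasts, fell from 1093, 1051 and 944 CPM to 586, 532 and 568 CPM (log2 fold change -0.87, SE 0.0891, edgeR adjusted p = 1.96e-06). E2f7, a repressor of the E2F family, rose by 2.09 (SE 0.158, edgeR adjusted p = 8.95e-08), and Gadd45g, a growth arrest gene, by 1.34 (SE 0.233, edgeR adjusted p = 0.000354).

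Few of the cell division genes differed between Geltrex and fibronectin. In the direct comparison none of the 30 mitosis genes was higher and 1 was lower, with a median of -0.11. Of the 38 replication genes 2 were higher and 1 lower. Over all genes in this comparison, 9.06% were higher and 10.3% lower on Geltrex. The difference in Mki67 was 0.08 (SE 0.152, edgeR adjusted p = 0.748) and in Top2a -0.06 (SE 0.0999, edgeR adjusted p = 0.721). Against Collagen I all 30 mitosis genes and 35 of the replication genes were higher on Geltrex, beside 19.0% of all genes. Ccnd1 did pass, being higher on Geltrex than on fibronectin by 0.56 (SE 0.0934, edgeR adjusted p = 0.00055).

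**Figure D3:**
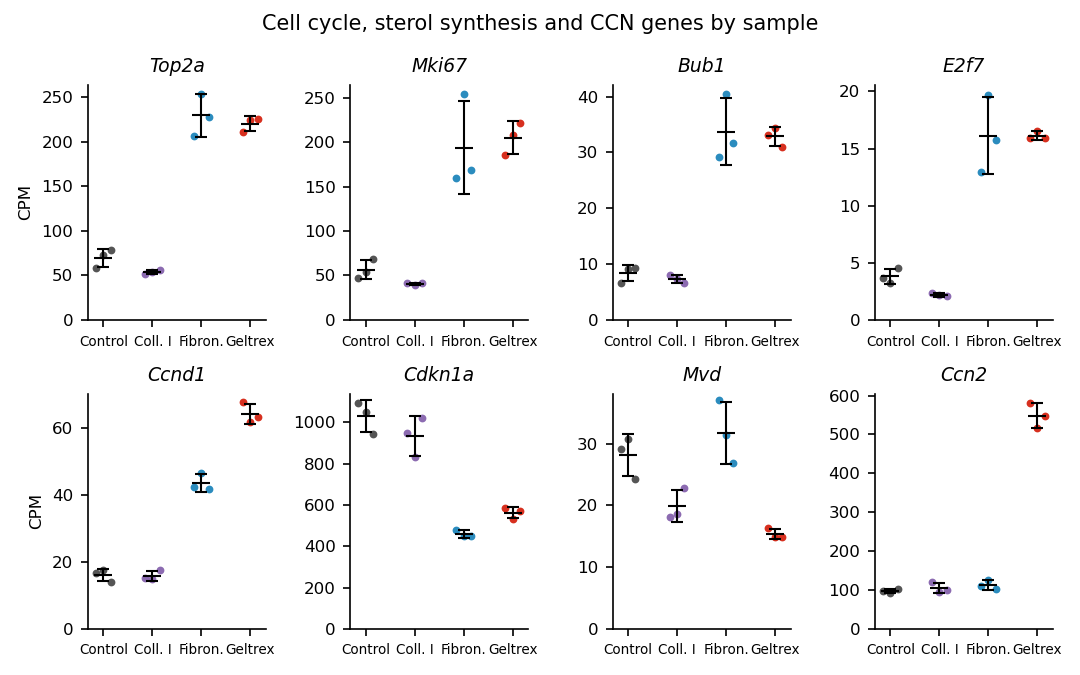
CPM (linear axis from 0) for 6 cell cycle genes, Mvd and Ccn2 in control, Collagen I, fibronectin and Geltrex, with 1 point per sample (3 per group) and bars for the mean and SD. Mki67 lies between 186 and 222 CPM in Geltrex against 47.4 to 68.3 CPM in control, with fibronectin beside Geltrex, while Ccn2 lies between 516 and 581 CPM in Geltrex against 91.7 to 102 CPM in control.

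Sarcomere genes were lower on Geltrex across slow, fast and embryonic isoforms. Promoters of 3 Z-disc and thin filament genes that fell are shown because they hold the letters CTANNNNTAG, a looser form of the MEF2 site, whose middle bases are usually A or T. Each line gives the 150 bases before the RefSeq start (GRCm38.p6), 5′ to 3′ on the strand of the gene, with capitals at the match. The reverse complement of CTANNNNTAG has the same letters.
Xirp2, chr2:67445852-67446001, plus strand: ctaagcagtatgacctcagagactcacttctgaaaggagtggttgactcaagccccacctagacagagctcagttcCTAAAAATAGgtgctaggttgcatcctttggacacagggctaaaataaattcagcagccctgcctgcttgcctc
Klhl41, chr2:69669970-69670119, plus strand: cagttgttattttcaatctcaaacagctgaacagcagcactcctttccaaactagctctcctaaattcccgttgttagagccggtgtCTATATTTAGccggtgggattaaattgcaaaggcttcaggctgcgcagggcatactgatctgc
Ldb3, chr14:34588608-34588757, minus strand: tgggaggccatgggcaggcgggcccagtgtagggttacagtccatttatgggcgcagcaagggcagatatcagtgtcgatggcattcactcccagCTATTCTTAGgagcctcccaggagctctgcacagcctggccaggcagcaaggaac
The middle bases are all A or T in Xirp2 and Klhl41 and not in Ldb3. The match ends 65 bases before the start in Xirp2, 54 in Klhl41 and 46 in Ldb3. Over all windows 3.69% held a match, and over tested genes 3.87%. The share was 25 of 455 (5.49%) among genes at least 2-fold lower, and 8 of 23 (34.8%) in the list of shared thick filament, thin filament and Z-disc genes. The slow list had 1 of 12 and the fast and embryonic lists none of 10 and none of 6. No stretch shown here for an interferon gene or a muscle gene was tested for binding.

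In the slow sarcomere list 12 of 13 tested genes of 16 listed fell and none rose, with a median of -1.66 and a background of 16.6% of genes lower. Myl2, the slow and cardiac regulatory light chain, fell most: 62.3, 61.2 and 49.8 CPM in control and 7.05, 6.47 and 7.03 CPM in Geltrex. Its log2 fold change was -3.08 (SE 0.146, edgeR adjusted p = 1.92e-09) and the groups were far apart. Tnnt1, slow troponin T, measured 297, 272 and 241 CPM against 54.6, 50.8 and 56.1 CPM (log2 fold change -2.33, SE 0.112, edgeR adjusted p = 1.92e-09). The remaining slow troponins fell too, Tnnc1 by 1.66 (SE 0.0876, edgeR adjusted p = 3.43e-09) and Tnni1 by 1.39 (SE 0.113, edgeR adjusted p = 1.9e-07). Myh7, the slow myosin heavy chain, measured 26.1, 32.7 and 22.4 CPM in control and 10.6, 8.65 and 10.9 CPM in Geltrex (log2 fold change -1.44, SE 0.173, edgeR adjusted p = 1.08e-05). Atp2a2, the slow calcium pump, measured 1007, 1182 and 959.5 CPM against 706, 667 and 718 CPM (log2 fold change -0.59, SE 0.114, edgeR adjusted p = 0.000848).

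The fast list moved the same way, with 13 of 14 tested genes of 16 listed lower, none higher and a median of -1.32. Mylpf, the fast regulatory light chain, measured 2381, 2293 and 2155 CPM in control and 1264, 1224 and 1218 CPM in Geltrex (log2 fold change -0.88, SE 0.0879, edgeR adjusted p = 1.57e-06). Myl1, the fast essential light chain, measured 1130.2, 1112 and 994 CPM against 576, 552 and 547 CPM (log2 fold change -0.95, SE 0.105, edgeR adjusted p = 4.27e-06). Casq1, fast calsequestrin, fell by 2.17 (SE 0.255, edgeR adjusted p = 8.22e-06), and Atp2a1, the fast calcium pump, by 1.11 (SE 0.126, edgeR adjusted p = 5.52e-06). No member of the slow or the fast list was higher on Geltrex. Of the Atp2a1 exons, 21.9% overlap a gene on the opposite strand.

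Embryonic and perinatal sarcomere genes had 5 of 6 lower, with a median of -1.53. Myh3, the embryonic myosin heavy chain, measured 2127, 2483 and 2237 CPM in control and 727, 621 and 749.9 CPM in Geltrex (log2 fold change -1.71, SE 0.136, edgeR adjusted p = 1.46e-07). Of 30 tested thick filament, thin filament and Z-disc genes shared between fibre types, 27 fell and none rose, with a median of -1.32. Acta1, skeletal actin, measured 1918, 1875 and 1559.8 CPM against 795, 716 and 739 CPM (log2 fold change -1.25, SE 0.105, edgeR adjusted p = 2.71e-07). Ttn, the giant spring of the sarcomere, spread more in Geltrex, at 576, 673 and 909 CPM against 1489, 1351 and 1337 CPM in control, without overlap (log2 fold change -0.95, SE 0.136, edgeR adjusted p = 5.5e-05). Klhl41, a thin filament stabiliser, fell by 1.80 (SE 0.171, edgeR adjusted p = 9.53e-07) and Xirp2, an actin-binding repeat protein, by 2.13 (SE 0.409, edgeR adjusted p = 0.000805). Ldb3, a Z-disc adaptor, fell less, by 0.37 (SE 0.0941, edgeR adjusted p = 0.00613).

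Des, the muscle intermediate filament, changed least among the muscle structural genes named here. It measured 1476, 1428 and 1348 CPM in control and 1184, 1165 and 1162 CPM in Geltrex (log2 fold change -0.28, SE 0.0786, edgeR adjusted p = 0.0132), a call lost without Geltrex replicate 2 (-0.27) or 3 (-0.27).

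**Figure D4:**
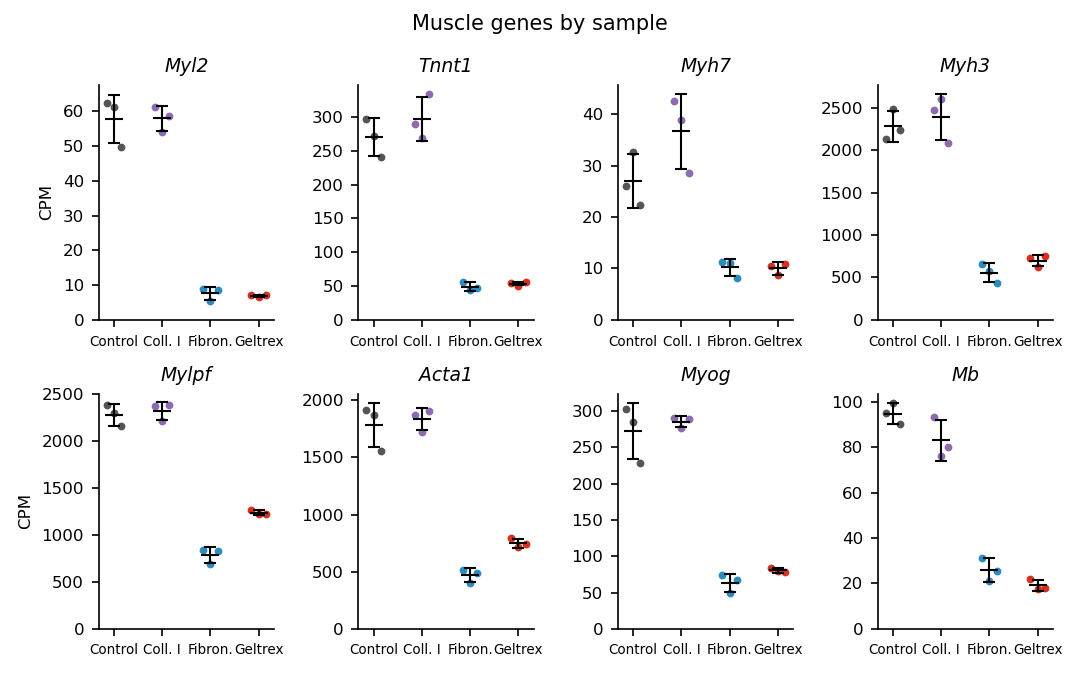
CPM (linear axis from 0) for 6 sarcomere genes, Myog and Mb in control, Collagen I, fibronectin and Geltrex, with 1 point per sample (3 per group) and bars for the mean and SD. Myl2 lies between 6.47 and 7.05 CPM in Geltrex against 49.8 to 62.3 CPM in control.

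Compared directly with fibronectin, some of these genes were higher on Geltrex and none lower, beside 9.06% and 10.3% of all genes. In the fast list 6 of 14 were higher on Geltrex and none lower (median 0.39), in the slow list 3 of 13 (median 0.13), in the shared list 10 of 30 (median 0.27) and in the embryonic list 3 of 6. Acta1 was higher on Geltrex than on fibronectin by 0.68 (SE 0.104, edgeR adjusted p = 0.00026) and Mylpf by 0.65 (SE 0.0876, edgeR adjusted p = 7.43e-05). Myl2 and Tnnt1 showed no difference that passed, at -0.16 (SE 0.156, edgeR adjusted p = 0.506) and 0.14 (SE 0.109, edgeR adjusted p = 0.408). Fibronectin itself had 12 slow, 13 fast and 28 shared genes lower than the same controls. Against Collagen I, 12 slow, 12 fast and 26 shared genes were lower on Geltrex and none higher, beside 18.2% of all genes lower.

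The myogenic factor list was split, with 3 of 15 tested genes higher, 6 lower and a median of -0.22 (0 higher and 3 lower with the Geltrex samples summed into 1). Over all genes tested, 16.4% were higher and 16.6% lower. In this list 1 member was at least 2-fold higher and 2 at least 2-fold lower, with a highest log2 fold change of 1.51. The members that rose are not named here. Myog, which drives terminal differentiation, measured 303, 284 and 229 CPM in control and 84.1, 79.5 and 77.7 CPM in Geltrex (log2 fold change -1.76, SE 0.126, edgeR adjusted p = 5.08e-08). Mef2c, a partner of the MyoD family, measured 256, 322 and 253 CPM against 107, 95.9 and 107 CPM (log2 fold change -1.43, SE 0.162, edgeR adjusted p = 5.68e-06). Mef2a, its widely expressed relative, measured 393, 513 and 467 CPM against 476, 490.1 and 513 CPM with no call (edgeR adjusted p = 0.521). Myod1, which commits cells to the muscle lineage, was at the threshold, with 118, 125 and 134 CPM in control and 106, 109.7 and 105 CPM in Geltrex. Its log2 fold change of -0.23 (SE 0.0867, edgeR adjusted p = 0.0489) lost its call without Control replicate 2 (-0.23) or 3 (-0.19), and without Geltrex replicate 1 (-0.22), 2 (-0.24) or 3 (-0.22). It also lost its call in DESeq2 (-0.23), with RLE scaling (-0.23), with no filter on low counts (-0.23) and with the Geltrex samples summed (-0.22).

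Myoblast fusion genes had 6 of 18 tested higher and 7 lower, beside 16.4% and 16.6% of all genes, with a median of -0.08. Log2 fold changes in this list reached 1.68, with 1 member at least 2-fold higher and 4 at least 2-fold lower. Mymk, the membrane protein that makes myoblasts fuse, measured 422, 397 and 303 CPM in control and 147, 130.4 and 138 CPM in Geltrex (log2 fold change -1.43, SE 0.121, edgeR adjusted p = 2.91e-07). Excitation-contraction coupling genes had 14 of 23 lower and 1 higher, with a median of -0.58 (7 lower and 0 higher with the Geltrex samples summed). Ryr1, the calcium release channel, measured 272, 371 and 232 CPM against 129, 121 and 152 CPM (log2 fold change -1.12, SE 0.166, edgeR adjusted p = 7.95e-05). Hrc, a calcium-binding protein of the sarcoplasmic reticulum, measured 196, 194 and 191 CPM against 57.7, 48.9 and 62.9 CPM (log2 fold change -1.78, SE 0.106, edgeR adjusted p = 9.38e-09). In both genes every Geltrex sample lay below every control.

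The dystrophin complex and endplate list, which includes the laminin receptor of muscle, had 13 of 22 tested genes lower and 3 higher, with a median of -0.32 (7 and 0 with the Geltrex samples summed). Dmd, dystrophin, measured 10.7, 21.5 and 15.2 CPM in control and 3.03, 2.18 and 2.84 CPM in Geltrex (log2 fold change -2.56, SE 0.351, edgeR adjusted p = 3.83e-05). Chrna1, the acetylcholine receptor subunit, measured 1054, 1057 and 1066 CPM against 679.5, 665 and 711 CPM (log2 fold change -0.63, SE 0.0765, edgeR adjusted p = 1.18e-05). Calcineurin, CaMK and NFAT genes had 3 of 20 higher and 3 lower, close to the 16.4% and 16.6% of all genes. Of these Ppp3ca, the calcineurin catalytic subunit, measured 266, 284 and 299 CPM against 293, 291 and 285 CPM (log2 fold change 0.04, SE 0.0799, edgeR adjusted p = 0.78), while Camk2b fell by 1.81 (SE 0.194, edgeR adjusted p = 3.03e-06).

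FoxO and atrophy genes had 9 of 17 lower, beside 16.6% of all genes, and none higher, with a median of -0.30. Trim63, the muscle ubiquitin ligase MuRF1, measured 32.1, 33.5 and 23.8 CPM in control and 5.55, 4.61 and 4.42 CPM in Geltrex (log2 fold change -2.62, SE 0.148, edgeR adjusted p = 5.74e-09). It was among the 10 largest decreases by the naming rule, with Lrtm1, Myl2, Pstpip1, Cilp, Fbxo40, Dnase1l3, AI480526, Col28a1 and Atp6v1c2. Fbxo40, a muscle ubiquitin ligase subunit that targets Irs1 protein, fell by 2.69 (SE 0.322, edgeR adjusted p = 9.83e-06). Foxo1 measured 45.5, 50.7 and 49.9 CPM against 36.6, 38.0 and 38.0 CPM (log2 fold change -0.38, SE 0.0906, edgeR adjusted p = 0.00458). Lrtm1, a leucine-rich repeat membrane protein, had the largest decrease of these 10, from 7.64, 6.71 and 4.54 CPM to 0.726, 0.371 and 0.767 CPM (log2 fold change -3.34, SE 0.269, edgeR adjusted p = 1.7e-07).

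Energy genes moved less than sarcomere genes. Of 55 nuclear genes of the respiratory chain 13 fell and none rose, with a median of -0.16, a share of 23.6% beside the 16.6% of all genes that fell. The count dropped to 5 without Control replicate 1 or 3 or Geltrex replicate 1, to 3 without Geltrex replicate 2 or 3, and to 1 with the Geltrex samples summed. Of the 13 genes of the mitochondrial genome 0 passed in edgeR, 0 had an unadjusted p under 0.05 and 0 passed in DESeq2, and their median was -0.26. With no filter on low counts 6 passed as lower, and 1 did with the 2 groups fitted alone or without Control replicate 2. Cox6a2, the muscle form of a cytochrome oxidase subunit, measured 5.89, 4.51 and 6.54 CPM in control and 2.22, 2.27 and 3.02 CPM in Geltrex (log2 fold change -1.17, SE 0.217, edgeR adjusted p = 0.0006). The PGC-1, ERR and PPAR list had 1 of 16 higher and 3 lower, a count that dropped to 2 without Control replicate 1, to 1 without Control replicate 3, and to 0 without Control replicate 2, without any 1 Geltrex library or with the Geltrex samples summed. Ppargc1a, the coactivator of mitochondrial biogenesis, measured 1.99, 2.35 and 1.996 CPM against 1.41, 1.52 and 1.62 CPM, not overlapping yet uncalled (log2 fold change -0.48, SE 0.264, edgeR adjusted p = 0.184).

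Myoglobin, creatine kinase and adenylate energy genes had 6 of 8 tested lower and none higher, with a median of -0.86. Mb, the oxygen store of oxidative fibres, measured 94.9, 99.4 and 90.0 CPM in control and 21.95, 17.7 and 18.1 CPM in Geltrex (log2 fold change -2.30, SE 0.131, edgeR adjusted p = 5.87e-09), and 27.6% of its exons overlap a gene on the opposite strand. Mb was also lower than on fibronectin, by a log2 difference of -0.43 (SE 0.131, edgeR adjusted p = 0.0304). Ckm, muscle creatine kinase, fell by 1.53 (SE 0.176, edgeR adjusted p = 6.51e-06). Fatty acid genes had 3 of 29 higher (10.3%) and 6 lower (20.7%), beside 16.4% and 16.6% of all genes. In this list 2 members were at least 2-fold higher and 3 at least 2-fold lower. The fatty acid transporter Cd36 measured 5.69, 6.68 and 4.798 CPM against 1.37, 1.81 and 2.57 CPM (log2 fold change -1.58, SE 0.298, edgeR adjusted p = 0.000686), and its cytosolic partner Fabp3 fell by 1.55 (SE 0.173, edgeR adjusted p = 5.05e-06).

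Glycolysis genes went both ways, with 9 of 26 tested higher and 7 lower and a median of 0.12. The enzymes of 3 steps are given with both isozymes, chosen after their values were seen. The muscle isozymes Pfkm, Eno3 and Pgam2 fell, by 0.79 (SE 0.151, edgeR adjusted p = 0.000817), 0.67 (SE 0.107, edgeR adjusted p = 0.000172) and 0.89 (SE 0.14, edgeR adjusted p = 0.000145) on the log2 scale. Their widely expressed counterparts rose, Pfkl by 0.57 (SE 0.0974, edgeR adjusted p = 0.000309), Eno1 by 0.42 (SE 0.0837, edgeR adjusted p = 0.00104) and Pgam1 by 0.51 (SE 0.0866, edgeR adjusted p = 0.000294). Eno3 measured 502, 472 and 382 CPM in control and 285, 284 and 286 CPM in Geltrex, while Eno1 measured 759, 697 and 697 CPM against 953, 988 and 944 CPM. Neither enolase overlapped between groups. Pygm, muscle glycogen phosphorylase, fell by 1.21 (SE 0.114, edgeR adjusted p = 9.06e-07), and Pkm, pyruvate kinase, was not called (edgeR adjusted p = 0.589).

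Hypoxia target genes had 11 of 17 tested higher and 2 lower, with a median of 0.37 (5 higher with the Geltrex samples summed). Adm, a vasodilator peptide, measured 1.59, 1.36 and 1.49 CPM in control and 5.77, 5.48 and 5.82 CPM in Geltrex (log2 fold change 1.94, SE 0.181, edgeR adjusted p = 7.87e-07). Pdk1, a kinase that inhibits pyruvate dehydrogenase, rose by 0.65 (SE 0.0912, edgeR adjusted p = 5.13e-05). Ddit4, an inhibitor of mTORC1, went against the list, at 27.8, 24.8 and 22.5 CPM in control and 6.02, 6.22 and 5.46 CPM in Geltrex (log2 fold change -2.08, SE 0.148, edgeR adjusted p = 4.51e-08). Ddit4 was also lower than on fibronectin by a log2 difference of -2.21 (SE 0.148, edgeR adjusted p = 4.97e-08). The TCA cycle list had 4 of 23 higher and 8 lower. The lower count was 5 without any 1 Geltrex library and 1 with them summed, and the NRF2 and metallothionein list 4 of 19 higher and 2 lower.

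The matrix and adhesion genes were mixed. Integrin subunits had 4 of 24 tested higher and 7 lower, with a median of -0.09, beside 16.4% and 16.6% of all genes. With the Geltrex samples summed 3 were higher and 3 lower. Itgb1, the common beta subunit, measured 1709, 1962 and 1991 CPM in control and 1697, 1704 and 1731 CPM in Geltrex with no call (edgeR adjusted p = 0.311). Itga8 fell from 5.37, 9.28 and 6.84 CPM to 1.49, 1.32 and 1.40 CPM (log2 fold change -2.35, SE 0.223, edgeR adjusted p = 9.1e-07). Focal adhesion genes had 9 of 23 higher and none lower, with a median of 0.22. Flna, which ties actin to integrins, measured 870.1, 1030.3 and 897 CPM against 1871, 1901 and 1899 CPM (log2 fold change 1.02, SE 0.0867, edgeR adjusted p = 2.94e-07), and Zyx rose by 0.74 (SE 0.0858, edgeR adjusted p = 6.94e-06). The difference of Flna from fibronectin did not pass (log2 difference -0.01, SE 0.0858, edgeR adjusted p = 0.945).

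Laminin and basement membrane genes belong to protein families found in the coating, though not every listed chain need be part of it. Beside 16.4% and 16.6% of all genes, 6 of 20 tested were higher and 5 lower, with a median of 0.08. Nid1, the nidogen that links laminin to Collagen IV, measured 476, 579 and 559 CPM in control and 783, 809 and 805 CPM in Geltrex (log2 fold change 0.57, SE 0.0844, edgeR adjusted p = 7.84e-05). Lama4, a laminin chain named after its values were seen, measured 20.2, 24.0 and 26.0 CPM against 45.1, 42.3 and 45.3 CPM (log2 fold change 0.92, SE 0.0992, edgeR adjusted p = 3.43e-06). Interstitial matrix genes had 13 of 37 higher and 7 lower. Lum, a proteoglycan that spaces collagen fibrils, measured 75.8, 92.1 and 104 CPM in control and 20.7, 19.4 and 17.4 CPM in Geltrex (log2 fold change -2.24, SE 0.152, edgeR adjusted p = 2.98e-08). Fn1 measured 5632, 7037 and 6694 CPM against 6901, 7204 and 7665 CPM and overlapped (edgeR adjusted p = 0.203). Metalloproteinases and inhibitors had 9 of 22 higher and 2 lower, with the collagenase Mmp13 up by 2.10 (SE 0.426, edgeR adjusted p = 0.00126).

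Sterol and fatty acid synthesis genes had 4 of 27 higher, 6 lower and a median of -0.08 against control. Leaving out 1 library gave 1 to 4 higher (1 without Control replicate 1 or Geltrex replicate 2 or 3) and 4 to 8 lower, and summing the Geltrex samples gave 0 and 2. Against fibronectin 20 of the 27 were lower on Geltrex and none higher, with a median of -0.51 and a background of 10.3% of genes lower. Fibronectin itself had 19 of them higher than control and 1 lower. Mvd, which makes isopentenyl diphosphate, measured 29.2, 30.8 and 24.3 CPM in control and 16.3, 14.95 and 14.9 CPM in Geltrex (log2 fold change -0.87, SE 0.129, edgeR adjusted p = 8.37e-05). Its difference from fibronectin was -1.05 (SE 0.129, edgeR adjusted p = 3.22e-05).

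The fibre-type genes that the study names from its sequencing were read in the same way. Hif1a, the oxygen-sensing factor, measured 202, 268 and 257 CPM in control and 313, 308 and 316 CPM in Geltrex, a log2 fold change of 0.36 (SE 0.133, edgeR adjusted p = 0.045) whose call was lost without Control replicate 1 (0.25) or 3 (0.41), or any 1 Geltrex library (0.36 to 0.38). Hk2, the hexokinase of insulin-responsive tissue, measured 88.9, 101 and 82.1 CPM against 108, 104 and 106 CPM, without overlap and just short of the threshold (log2 fold change 0.23, SE 0.0894, edgeR adjusted p = 0.0622). It passed without Control replicate 2 (0.32) and when the 2 groups were fitted alone (0.22). Fyn, a Src family kinase, measured 179.5, 197 and 169 CPM against 193, 186 and 193 CPM (log2 fold change 0.07, SE 0.0881, edgeR adjusted p = 0.592). Synm, an intermediate filament protein, measured 1.51, 3.38 and 2.80 CPM against 1.92, 1.98 and 2.07 CPM (log2 fold change -0.37, SE 0.259, edgeR adjusted p = 0.305), and it passed without Control replicate 1 (-0.64). Fyn and Synm overlapped between groups. Myh6, the alpha cardiac myosin heavy chain, which the list of slow genes holds, fell by 1.61 (SE 0.304, edgeR adjusted p = 0.000688). Pdk2, another kinase that inhibits pyruvate dehydrogenase, fell by 0.44 (SE 0.0938, edgeR adjusted p = 0.00182). Prkaa2, the AMPK subunit of muscle, measured 10.98, 16.5 and 13.0 CPM against 9.40, 7.70 and 8.75 CPM (log2 fold change -0.65, SE 0.237, edgeR adjusted p = 0.0461), a call lost without Control replicate 2 (-0.47) or 3 (-0.68), or any 1 Geltrex library (-0.71 to -0.57). Alas1, the first enzyme of heme synthesis, gave -0.23 (SE 0.103, edgeR adjusted p = 0.106) and passed when the 2 groups were fitted alone.

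**Figure D5:**
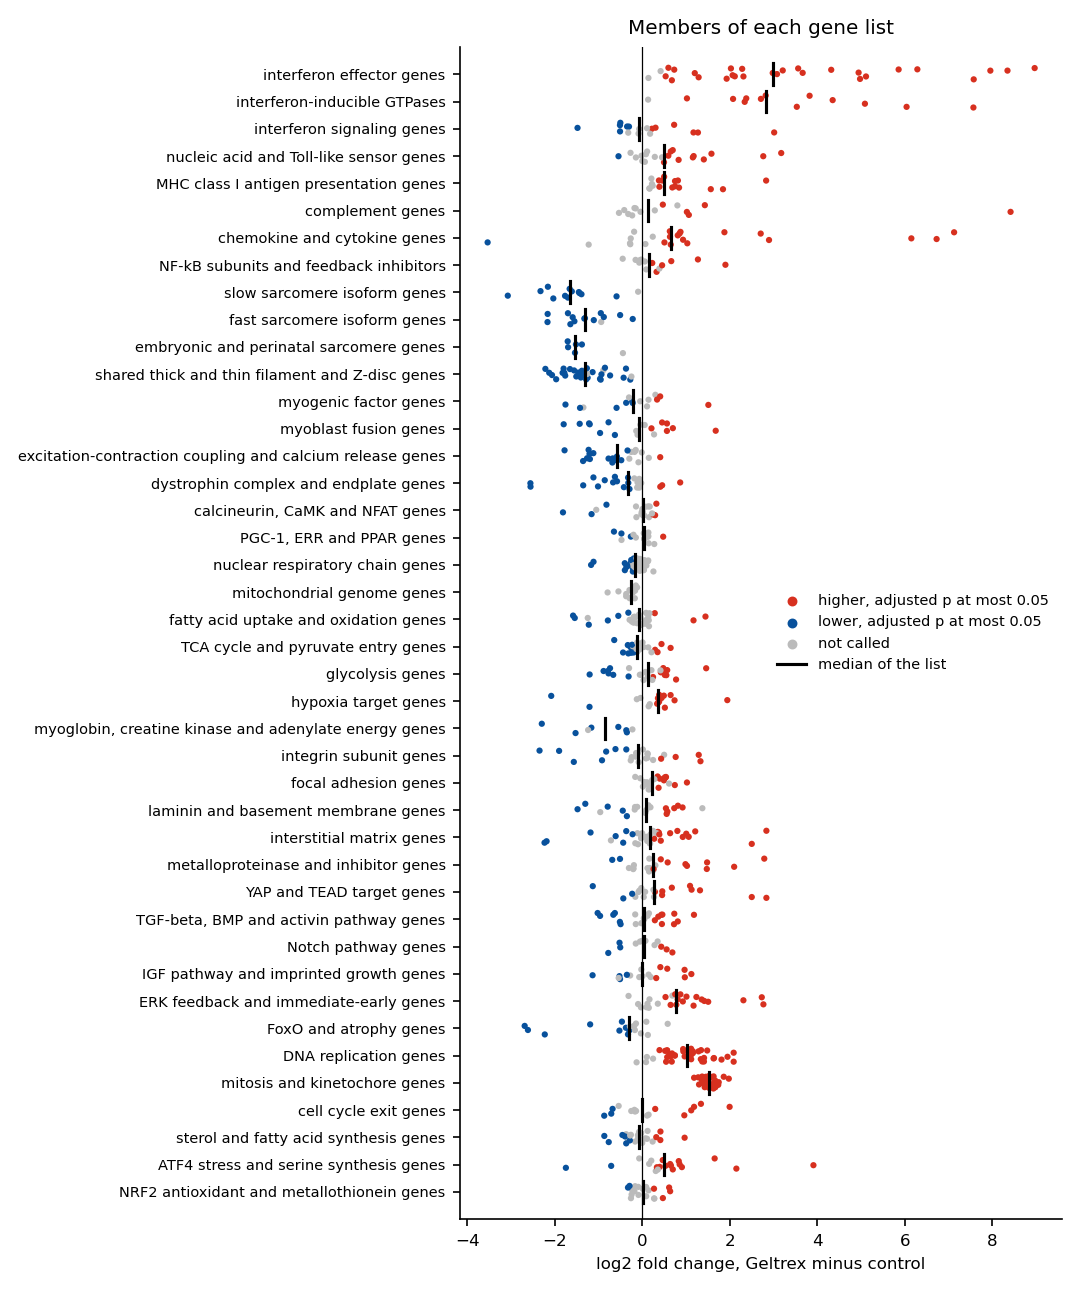
Log2 fold change of Geltrex over control for each tested member of each gene list, 1 point per gene, red where higher, blue where lower (adjusted p of at most 0.05) and grey where not called, with a black bar at the median of the list. The mitosis list is red in 30 of 30 points and the interferon effector list in 27 of 29, while the slow and fast sarcomere lists are blue in 12 of 13 and 13 of 14.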

How the data were processed

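RNA-seq counts were analysed for 3 Geltrex and 3 control samples, with 3 fibronectin and 3 Collagen I samples in the same fit. The table the authors deposited holds unnormalized counts of reads for each gene. Per the submitters' processing notes, the authors used FastQC, Trimmomatic, HISAT2, featureCounts and DESeq2. The genome build, annotation release and strand setting are not given in the sources used here, and overlapping genes can therefore share reads. All 55536 identifiers matched GENCODE (GRCm38). Total counts ran from 22520404 to 27334546 over the 6 samples.

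Genes were kept by filterByExpr (minimum count 10, minimum total 15), scaled by TMM and tested with the edgeR quasi-likelihood test (edgeR 4.0.16, limma 3.58.1, R 4.3.3) in 1 fit of 4 groups with 8 residual degrees of freedom. P-values were adjusted by Benjamini-Hochberg over the 14499 genes tested. SE is the absolute log2 fold change over the square root of F. CPM used effective library sizes, and plots show the mean and SD of 3 samples. A gene was called at an adjusted p of at most 0.05, and called differentially expressed with a fold change of at least 2 as well. Against 0 control counts a floor of 3 counts over the group was used, and against 1 to 3 counts the ratio has an exact 95% counting interval; both cover counting error only.

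The comparison, gene lists and tests were chosen with earlier results of these data known. Lists are described by counts and medians, with no set test. Genes were named by rule: the 10 largest changes each way with a mean of at least 1 CPM and no overlap, the 2 most abundant and the 2 most changed called members of each list, and genes the study names from its sequencing. Isg15, Gbp3, Ddx60, Stat2, Irf9, Ccl2, Ccl5, Cxcl14, Dusp1, Ttn, Klhl41, Ldb3, Mef2c, Mymk, Lum, Lama4, Pfkm, Pfkl, Eno1, Eno3, Pgam1 and Pgam2 were added or kept for their values. The edgeR step was tested on simulated data of 14499 genes. Of 100 changed 2-fold 71% were recovered, and of 100 changed 4-fold 91%, with 9 false calls among 171. The simulation gave all groups the same spread for each gene, unlike the median 3.66% in Geltrex and 8.41% in control. It also changed far fewer genes than were called here, so it does not measure the false calls of the real comparison. Alternatives were DESeq2 1.42.0, RLE scaling, other filters, 2 groups alone, a replicate block, other fold minimums, each library left out, and the 3 Geltrex samples summed into 1. Summaries used Python 3.11.15 and SciPy 1.17.1. Promoters came from RefSeq (GRCm38.p6). Some named results are not reported here.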

Additional observations from a re-analysis of the deposited data

How the results depend on the processing

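The count of differentially expressed genes on Geltrex against control moved with the thresholds and the filter. With no fold minimum it was 4786 (2373 higher, 2413 lower), and under a stricter minimum of 2 on the log2 scale it was 271 (121 higher, 150 lower). The same 2 settings gave 2805 and 150 genes against fibronectin, and 5384 and 330 against Collagen I. With at least 10 counts required in every sample, which leaves out genes near 0 in control, it was 851 (433 lower), with 361 against fibronectin and 855 against Collagen I. That filter left 15 of 17 tested interferon effectors and 4 of 5 tested GTPases higher, since fewer members were tested. DESeq2, RLE scaling and a fit of the compared groups alone left each of these counts within 1.5 times its value. Leaving out 1 library gave 1194 to 1367 genes against control (560 to 615 higher, 599 to 769 lower), 500 to 599 against fibronectin and 1239 to 1416 against Collagen I.

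With the 3 Geltrex samples summed into 1, which is then assumed to vary like the other groups, the count against fibronectin was 353. MHC class I genes higher fell to 6, excitation-contraction coupling genes lower to 7 and respiratory chain genes lower to 1. Of 70 other list counts 30 moved by over 1.5 times there, among them TCA cycle genes lower (8 to 1), hypoxia targets higher (11 to 5), dystrophin complex and endplate genes lower (13 to 7), NF-kB subunits and inhibitors higher (6 to 2), integrins lower (7 to 3) and myogenic factors (3 higher and 6 lower to 0 and 3). Atp2a2, B2m, Des, Foxo1, Hif1a, Ifi27, Ldb3, Myod1, Nfkb1, Pdk2, Pfkm and Prkaa2 lost their calls there, and the cause was not tested. Leaving out 1 library also moved short counts: calcineurin list higher from 3 to 1 without Geltrex replicate 1 or 2, dystrophin list higher from 3 to 1 without Control replicate 3 or Geltrex replicate 1 or 3, laminin list lower from 5 to 3 without Geltrex replicate 1 or 2, and NRF2 list lower from 2 to 1 without any 1 library but Control replicate 1. Sterol list lower was 10 with no filter or the 2 groups alone. Respiratory chain genes lower numbered 6 with no filter and 3 to 10 on leaving out 1 library. Uncalled genes changed sign in 3 cases: Mapk3 was 0.033 without Control replicate 3 and 0.001 without Geltrex replicate 3 (range -0.085 to 0.033 over the libraries left out), and Ppp3ca was -0.009 without Control replicate 1 (range -0.009 to 0.077).

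Replicate numbers did not pair the samples: same-numbered Geltrex and control samples had deviations correlated at -0.02, 0.017 and 0.023. A fit that added this number as a block called 1325 genes (605 higher, 720 lower). Among named genes Myod1 lost its call there (log2 fold change -0.232), and no other call changed. The interferon ligands had too few counts to pass the filter and were not tested with it.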
